A study of Mus musculus with 6 samples.

Results

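The genes described here carry the names of proteins of the mitochondrial ribosome, and all but Mrps36 are taken to encode such proteins. They were chosen by name: a row of the expression table was a member if its Ensembl ID belonged to a mouse protein-coding gene whose symbol began with Mrpl (large subunit) or Mrps (small subunit) followed by a number. Of the 33184 gene rows, 77 were members, 48 Mrpl and 29 Mrps. The rule itself used no expression value, but it was chosen with earlier results of these data known. Mrpl53, which the name rule also covers, was not analysed here.

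The mitochondrial ribosome sits in the matrix and translates the few messages of the mitochondrial genome, all of them for membrane subunits of the respiratory chain and ATP synthase. Its RNAs are encoded in mitochondrial DNA, whereas every one of its proteins is encoded in the nucleus, made in the cytosol and imported. The large subunit forms the peptide bond and releases the new chain at the inner membrane, and the small subunit binds and decodes the message. Many of these proteins have relatives in the bacterial ribosome, and the others are specific to mitochondria.

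The libraries came from skin wounds of db/db mice, which lack a working leptin receptor and become obese and diabetic, so both groups carried the diabetic genotype. Per the labels, a round wound of 0.6 cm was cut through epidermis and dermis, siRNA was injected around it at dpi1 (day 1 post injury), and the wound tissue was frozen at dpi4. Of the 6 libraries, 3 were labelled SFRP2-siRNA (siRNA against SFRP2, a secreted modulator of Wnt signaling) and 3 NC (control siRNA), and the comparison asks how the wound transcriptome differs between the treatments. Sample titles give day 3 in place of day 4, and neither the age nor the number of animals per library was stated, so the tests measure the spread between these 6 libraries, which may be technical in part. The treated libraries are numbered siRNA 1 to 3. SFRP2 siRNA sequences are listed under the same names in the study's supplement, so each treated library may have received its own sequence. The NC libraries are numbered in the same way although only 1 control sequence is listed, so the numbers may count replicates only. Expression was deposited as FPKM (fragments scaled by exon length and by the size of the library), a scale per length on which levels of different genes can be compared.

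At the RNA level Sfrp2 itself went against the labels. For the protein, the paper reports less SFRP2 staining in wounds of diabetic mice given the siRNAs. That staining was at day 3 after injury, whereas the labels give dpi4 for these libraries and their titles day 3. Sfrp2 RNA was at 11.6, 40.6 and 14.1 FPKM in NC 1, 2 and 3, whereas libraries 1, 2 and 3 of the SFRP2-siRNA label held 50.6, 54.6 and 55.2 FPKM. All 3 libraries labelled SFRP2-siRNA were thus above all 3 NC libraries, with a log2 fold change of 1.45 (SE 0.43), a limma p of 0.0125 and an adjusted p of 0.518. For this reason "treated" below means only that a library carries the SFRP2-siRNA label, and every direction rests on that label. The libraries held from 42.9 M to 47.1 M reads, recovered from the FPKM steps, and 26081 to 27189 genes were above 0. Keratinocyte markers, 10 of 10 above 0 in every library, summed to between 3717 and 6970 FPKM. The library labelled SFRP2-siRNA 1 stood apart in hair follicle markers, whose sum was 25.3 FPKM there and 2743 to 5713 FPKM in the other libraries.

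All 77 members were measured above the filter of 0.5 FPKM on the mean over the 6 libraries, and their mean levels ran from 2.57 FPKM for Mrps35 to 80.0 FPKM for Mrpl12. Each member's FPKM went back to whole reads with the exon lengths of a public mouse annotation, from 211 reads for Mrps18c in its lowest library to 9467 reads for Mrpl12 in its highest. The median of the mean levels was 13.8 FPKM over the Mrpl genes and 8.56 FPKM over the Mrps genes. Mrpl12, the stalk protein present in several copies on each ribosome, had the highest level of the large subunit, followed by Mrpl20 at 47.6 FPKM and Mrpl41 at 39.8 FPKM. Mrps21, a platform protein, led the small subunit at 59.7 FPKM, followed by Mrps15 at 31.1 FPKM and Mrps23 at 24.9 FPKM. The lowest means of the large subunit belonged to Mrpl33 at 2.61 FPKM and Mrpl47 at 3.04 FPKM, and those of the small subunit to Mrps35 and to Mrps30 at 2.69 FPKM. The Mrpl33 value was spread over 7326 bases of annotated exon, against 739 bases for Mrps21, and an exon length that the wound does not transcribe lowers an FPKM value.

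**Figure D1:**
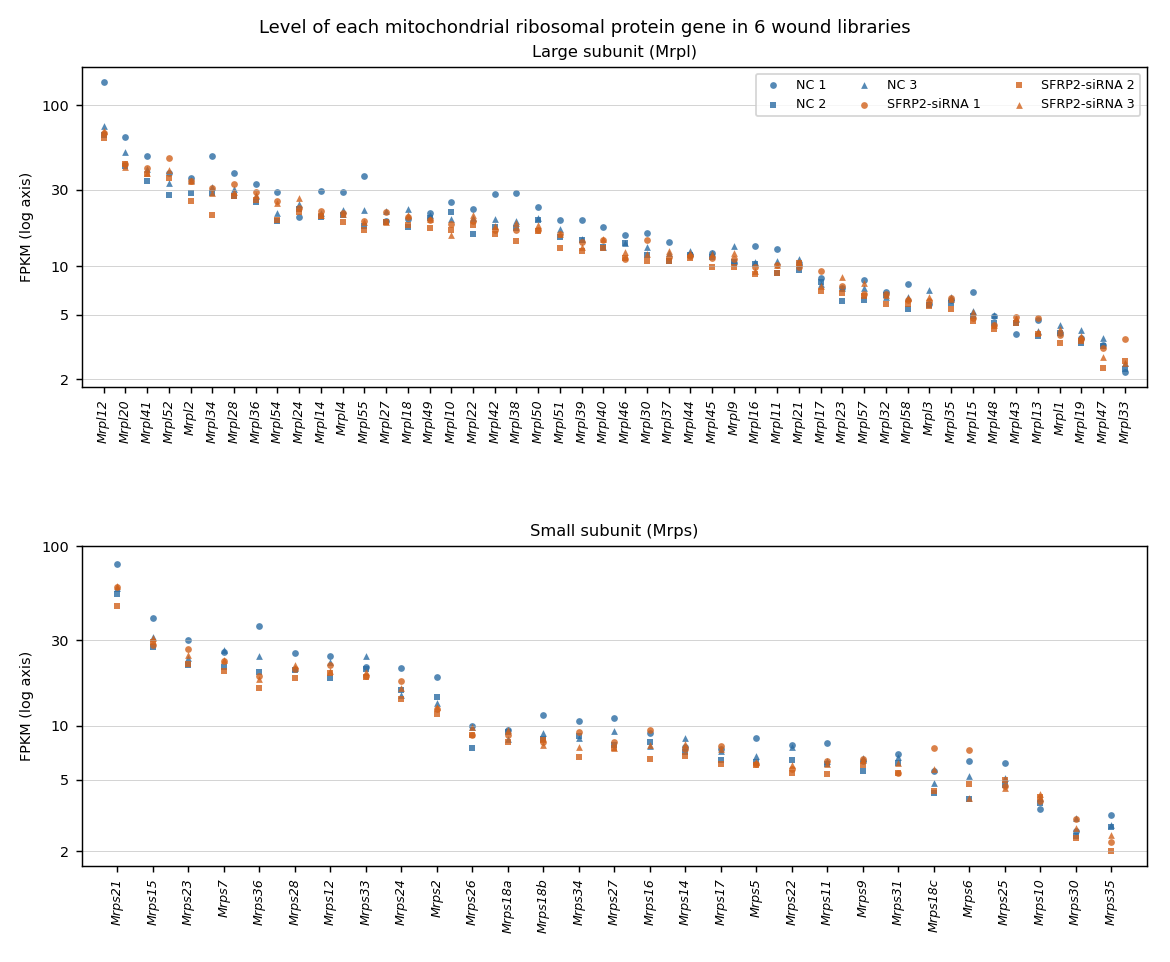
Level of each of the 77 members in the 6 libraries, in FPKM on a log axis, with the 48 Mrpl genes above and the 29 Mrps genes below, each ordered by mean level. Points are single libraries, blue for NC and orange for the libraries labelled SFRP2-siRNA. NC 1 (blue circle) is the topmost point in 49 members, and the orange square of SFRP2-siRNA 2 is the lowest in 48.

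The stretch before the transcription start is where members could share sequence that the name rule did not use. RefSeq promoter windows (GRCm38.p6, 300 bases, from 250 before to 50 after each start) were found for 68 members, 42 Mrpl and 26 Mrps. They were searched on both strands for the letters GCGCANGCG of NRF1, a factor known for nuclear genes of mitochondrial function, for CCGGAAG of the ETS family, which includes GABP, and for AAGATGGC of YY1. The ETS letters stood in 25 members (36.8%) against 12.9% of the 17491 protein-coding genes with a window, the NRF1 letters in 16 (23.5%) against 9.63%, and the YY1 letters in 12 (17.6%) against 3.57%. Members also had somewhat more G and C in these windows, with a median of 58.5% against 56.3%. At least 1 of the motifs was present in 43 members, and 25 had none. A match is a description of letters and does not show that a factor binds there.

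**Figure D2:**
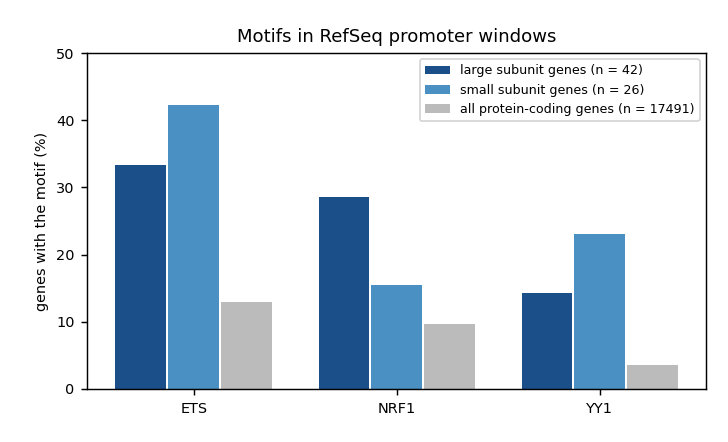
Share of genes, in percent, whose RefSeq promoter window holds the letters of each motif, for large subunit genes, small subunit genes and all protein-coding genes. The ETS letters were in 33.3% of Mrpl and 42.3% of Mrps genes, the NRF1 letters in 28.6% and 15.4%, and the YY1 letters in 14.3% and 23.1%, and each gray bar is lower.

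The bases before the start are shown for 5 members whose windows hold a motif, from RefSeq (GRCm38.p6), 5′ to 3′ on the strand of the gene, with motif matches in capitals. These 5 do not represent all members. The windows of Mrpl46 (smallest p), Mrps36 (lowest log2 fold change), Mrpl50, Mrpl16, Mrps2 and Mrpl55 hold none of the motifs. Mrpl10 (chr11:97041332-97041581, plus strand) is among the members with the smallest p and holds the NRF1 letters, on the opposite strand, 135 to 127 bases before the start. Mrpl12 (chr11:120484387-120484636, plus strand) has the highest level and holds them, also on the opposite strand, 80 to 72 bases before the start. Mrps22 (chr9:98601680-98601929, minus strand) was second in p among the Mrps genes and holds the ETS letters, on the same strand, 11 to 5 bases before the start. Mrpl52 (chr14:54426659-54426908, plus strand) had the highest log2 fold change of all members. It holds the ETS letters, on the opposite strand, 47 to 41 bases before the start and once more just past it. Mrps11 (chr7:78782881-78783130, plus strand) was chosen after its values were seen, because its start lies head to head with that of Mrpl46. It holds the YY1 letters, on the opposite strand, 107 to 100 bases before the start.
Mrpl10: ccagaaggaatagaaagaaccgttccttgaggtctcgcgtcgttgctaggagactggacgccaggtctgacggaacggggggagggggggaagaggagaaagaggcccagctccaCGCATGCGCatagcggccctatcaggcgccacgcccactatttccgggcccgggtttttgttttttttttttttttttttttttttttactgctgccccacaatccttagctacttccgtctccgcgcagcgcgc
Mrpl12: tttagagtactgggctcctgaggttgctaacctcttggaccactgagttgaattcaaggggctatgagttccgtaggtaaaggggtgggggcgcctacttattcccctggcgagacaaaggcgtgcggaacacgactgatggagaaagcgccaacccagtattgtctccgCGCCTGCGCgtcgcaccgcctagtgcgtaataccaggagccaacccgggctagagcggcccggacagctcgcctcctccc
Mrps22: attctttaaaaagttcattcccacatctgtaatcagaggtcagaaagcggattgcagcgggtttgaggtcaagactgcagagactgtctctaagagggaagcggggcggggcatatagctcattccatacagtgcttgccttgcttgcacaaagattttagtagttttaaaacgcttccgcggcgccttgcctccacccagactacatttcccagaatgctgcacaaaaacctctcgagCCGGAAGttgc
Mrpl52: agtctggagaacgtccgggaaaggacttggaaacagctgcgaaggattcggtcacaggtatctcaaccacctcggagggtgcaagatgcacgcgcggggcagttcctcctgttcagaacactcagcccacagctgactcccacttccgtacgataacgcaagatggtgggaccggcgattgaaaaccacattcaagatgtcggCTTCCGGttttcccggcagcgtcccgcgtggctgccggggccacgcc
Mrps11: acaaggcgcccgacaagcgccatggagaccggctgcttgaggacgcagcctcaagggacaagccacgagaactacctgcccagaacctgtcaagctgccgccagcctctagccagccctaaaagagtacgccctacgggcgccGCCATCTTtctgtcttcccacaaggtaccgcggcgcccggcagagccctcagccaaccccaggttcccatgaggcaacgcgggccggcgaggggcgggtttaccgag

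No member reached an adjusted p under 0.05 with an absolute log2 fold change above 1 (limma on log2(FPKM + 1), Benjamini-Hochberg over 16005 genes), and none of the 16005 did (0.0%). The smallest adjusted p of a member was 0.518, and voom on the recovered reads also called 0 members. At the same thresholds the paper reports differentially expressed genes in these wounds with DESeq2, more of them lower than higher. The absence of calls therefore applies to the fits used here, and why the 2 results differ was not tested. At an unadjusted p under 0.05, 3 members were lower in the treated libraries (3.9%, against 2.86% of all genes tested), namely Mrpl46, Mrpl10 and Mrps36, and 0 were higher (6.72% of all genes). Mrps36 is a member by name only and is no part of the ribosome. With subunits assigned by structure, 2 of 51 large subunit genes (3.92%) and 0 of 30 small subunit genes were lower at this limit. The groups did not overlap, with all treated libraries below all NC libraries, in 15 members (19.5%, against 3.92% of all genes), 8 Mrpl and 7 Mrps, Mrps36 among them. Other scalings gave from 10 such members at equal sums (13.0%, against 2.8% of all genes) to 30 under median-of-ratios scaling (39.0%, against 7.87%). Leaving out NC 2 gave 35 (45.5%, against 6.83%), and leaving out NC 1 gave 15 (19.5%, against 7.34%). The opposite held in 1 member, Mrpl33 (1.3%, against 13.9% of all genes). In a design of 3 against 3 libraries the exact permutation test cannot go below p = 0.1, which is the value of each of these members.

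The direction of the family depended on how the libraries were scaled, so it is also given against all genes. As deposited, 61 of the 77 members had a lower mean in the treated group, against 4514 of all 16005 genes, while 39 were lower after rescaling the libraries to equal FPKM sums and 74 after median-of-ratios scaling, which moved the all-gene median of the log2 fold changes from 0.125 to 0. The median log2 fold change of the members was -0.09 and lay 0.21 below that of all genes (a difference of -0.213), and 74 members were below the median of all genes. Without NC 1 this difference was -0.104, with 49 members lower and 0 at an unadjusted p under 0.05. NC 1 was the highest library in 49 members (63.6%), against 10.2% of all genes, and the library labelled SFRP2-siRNA 2 was the lowest in 48 (62.3%), against 7.85% of all genes. Over all genes NC 1 was instead the lowest library in 46.9%. Set against all genes in the same library, the members' median deviation on the log2 scale was 0.418 in NC 1, -0.059 in NC 2 and 0.005 in NC 3, and -0.062, -0.208 and -0.102 in treated libraries 1, 2 and 3. The groups did not overlap on this measure, but the lowest NC library and the highest treated library stood at nearly the same place.

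**Figure D3:**
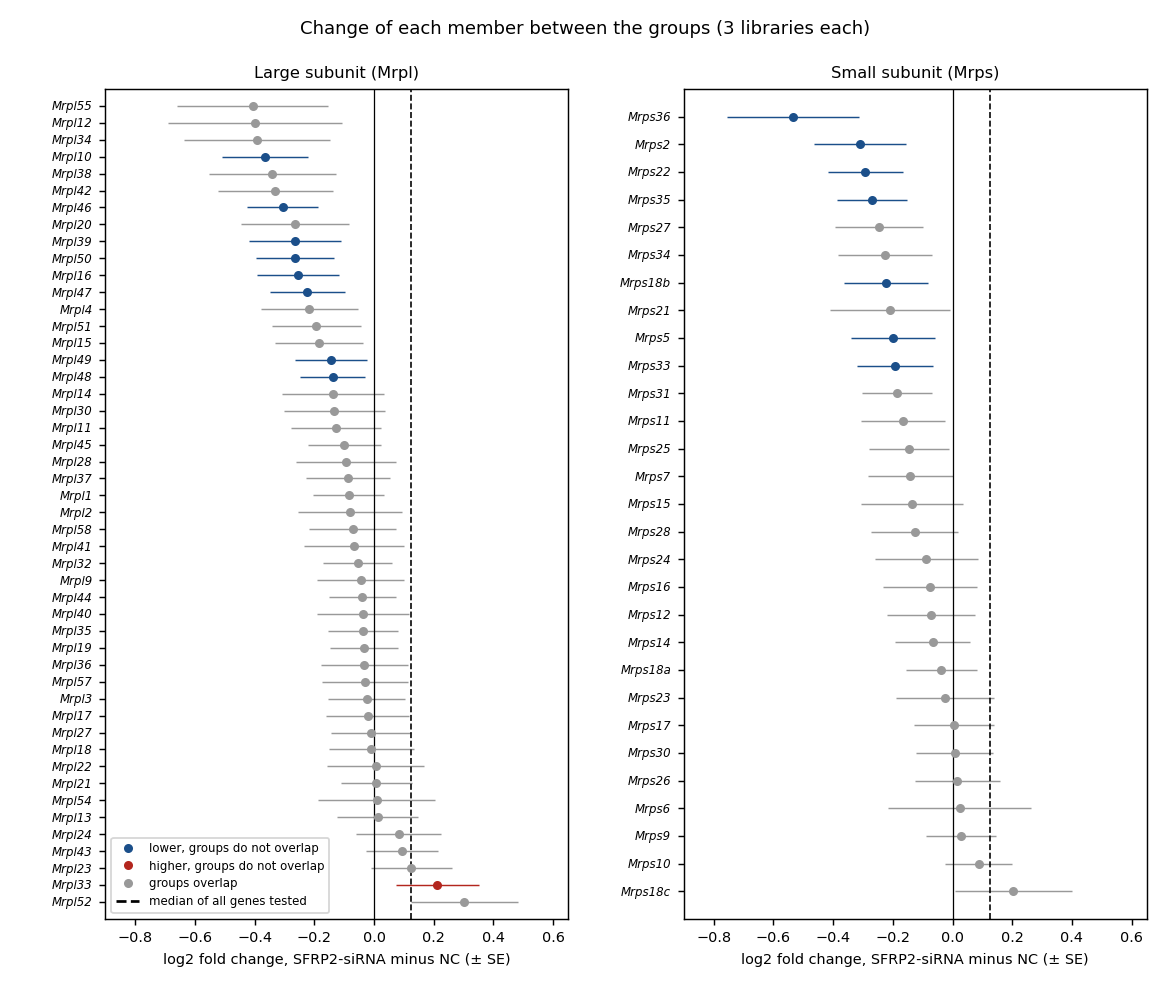
Log2 fold change (libraries labelled SFRP2-siRNA minus NC, 3 each) of every member with its limma SE, large subunit left and small subunit right, with the median of all genes tested as a dashed line at 0.125. Blue points are the 15 members whose treated libraries all lay below all NC libraries, red is Mrpl33, and 74 of 77 points lie left of the dashed line.

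Large and small subunit genes kept a near constant ratio across the libraries. The mean log2(FPKM + 1) of the Mrpl genes was 4.03, 3.73 and 3.87 in NC 1, 2 and 3 and 3.83, 3.67 and 3.81 in the treated libraries. That of the Mrps genes was 3.67, 3.37 and 3.50 against 3.46, 3.29 and 3.41. Large minus small came to 0.367 ± 0.006 (SD, n = 3) in NC and 0.383 ± 0.015 in the treated group, and the groups overlapped, with the highest NC value at 0.374 and the lowest treated value at 0.370. Summed FPKM of the large over the small subunit genes was 2.13 to 2.23 in NC and 2.17 to 2.20 in the treated libraries. The median log2 fold change was -0.08 for the 48 Mrpl genes and -0.14 for the 29 Mrps genes, with 39 and 22 lower. They became -0.04 and -0.05 without NC 1, and the distance between the medians, 0.053, shrank to 0.009 without NC 1. Moving Mrps18a and Mrps30, which carry Mrps names but sit in the large subunit, leaving out Mrps36 and adding the subunit proteins with other symbols gave medians of -0.08 and -0.13. The summed FPKM of all members was 1501, 1096 and 1225 in NC and 1188, 1042 and 1168 in the treated libraries, again with NC 1 apart and the rest overlapping.

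The stalk, which recruits the translation factors, had the lowest median of the large subunit roles, -0.365 on the log2 scale over its 3 members, which became -0.067 without NC 1. Mrpl10, the stalk base (ENSMUSG00000001445), was at 25.2, 21.8 and 19.6 FPKM in NC and 18.4, 17.0 and 15.6 FPKM in the treated libraries. Every treated library lay below every NC library, at means of 22.2 ± 2.83 and 17.0 ± 1.37 FPKM (SD, n = 3), with a log2 fold change of -0.37 (SE 0.14), a limma p of 0.0406 and an adjusted p of 0.518. Mrpl12 was at 140.1, 65.3 and 74.6 FPKM in NC and 67.3, 62.8 and 69.7 FPKM in the treated libraries. Its NC 1 value was far above the other 5, which overlapped. The log2 fold change of -0.40 (SE 0.29) had a limma p of 0.215 and became -0.07 without NC 1. Mrpl11 had a log2 fold change of -0.13 and overlapping groups.

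The central protuberance faces the small subunit and the tRNAs, and 7 of its 8 members had a lower treated mean as deposited, 3 of 8 after rescaling to equal sums. Mrpl46 (ENSMUSG00000030612), one of its mitochondria-specific proteins, had the smallest p of all members. It was at 15.6, 14.1 and 14.1 FPKM in NC and 11.2, 11.3 and 12.3 FPKM in the treated libraries, so that the groups lay apart. Its log2 fold change was -0.31 (SE 0.12), with a limma p of 0.0378 and an adjusted p of 0.518, and -0.26 without NC 1. Mrpl52 was the exception, at 37.9, 27.6 and 33.2 FPKM in NC and 47.0, 35.4 and 39.9 FPKM in the treated libraries. The treated library 2 lay inside the NC range, and the log2 fold change of 0.30 (SE 0.18) had a limma p of 0.137. Mrpl38 at -0.34, or -0.13 without NC 1, overlapped between groups, and Mrpl48 at -0.14 did not.

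Proteins around the exit tunnel, where the new chain leaves toward the membrane, divided evenly, 3 of 6 lower and 3 higher as deposited and 6 of 6 lower under median-of-ratios scaling, with a median log2 fold change of -0.01. Mrpl47 was at 3.25, 3.21 and 3.60 FPKM in NC and 3.14, 2.34 and 2.74 FPKM in the treated libraries. Its groups lay apart by little, since treated library 1 was close to NC 2, and the log2 fold change was -0.22 (SE 0.13). Mrpl45, which anchors the ribosome to the inner membrane, had a log2 fold change of -0.10, and Mrpl23 one of 0.13.

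Among the other large subunit genes, Mrpl50, with no bacterial relative, was at 23.5, 19.5 and 20.0 FPKM in NC and 16.8, 16.7 and 18.2 FPKM in the treated libraries. Mrpl16, whose bacterial relative lies near the tRNA sites, was at 13.4, 10.4 and 10.7 FPKM in NC and 9.92, 9.02 and 9.40 FPKM in the treated libraries. The groups lay apart in both, with log2 fold changes of -0.27 (SE 0.13) and -0.26 (SE 0.14) and limma p of 0.0839 and 0.107, and at -0.19 and -0.15 without NC 1. Mrpl33, the member whose groups lay apart in the other direction, was at 2.21, 2.30 and 2.50 FPKM in NC and 3.55, 2.59 and 2.52 FPKM in the treated libraries. The gap between NC 3 and treated library 3 was small. With a log2 fold change of 0.21 (SE 0.14), its limma p was 0.173. Mrpl55, a mitochondria-specific protein, had the lowest log2 fold change of the large subunit, at 36.5, 17.9 and 22.4 FPKM in NC and 19.2, 16.8 and 18.8 FPKM in the treated libraries. NC 1 again stood alone. The value of -0.41 (SE 0.25) had a limma p of 0.155 and became -0.13 without that library. Mrpl20, known from bacteria for binding the RNA of the large subunit early in its assembly, had a log2 fold change of -0.27, or -0.11 without NC 1, and overlapping groups, and Mrpl41 was at -0.07, which turned to 0.03 after rescaling to equal sums. Mrpl39, Mrpl48 and Mrpl49 were the further Mrpl genes whose groups lay apart, at log2 fold changes of -0.27, -0.14 and -0.14, and Mrpl39 was at -0.14 without NC 1.

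Mrps36 (ENSMUSG00000061474) had the lowest log2 fold change of all 77 members. Despite its name the protein is known as a part of the 2-oxoglutarate dehydrogenase complex of the citric acid cycle, not of the ribosome. It was at 36.0, 20.0 and 24.6 FPKM in NC and 18.8, 16.2 and 18.2 FPKM in the treated libraries. All treated libraries lay below all NC libraries, at means of 26.9 ± 8.24 and 17.7 ± 1.35 FPKM (SD, n = 3), with a log2 fold change of -0.53 (SE 0.22), a limma p of 0.0473 and an adjusted p of 0.518. Without NC 1 the log2 fold change was -0.31.

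Of the ribosomal Mrps genes, Mrps22 (ENSMUSG00000032459), a mitochondria-specific protein, came first in p. Mrps22 was at 7.86, 6.41 and 7.56 FPKM in NC and 5.74, 5.42 and 6.07 FPKM in the treated libraries, so the groups lay apart, with means of 7.28 ± 0.766 and 5.74 ± 0.329 FPKM (SD, n = 3). The log2 fold change was -0.29 (SE 0.13), with a limma p of 0.0535 and an adjusted p of 0.518. Mrps35, also without a bacterial relative, was at 3.17, 2.72 and 2.80 FPKM in NC and 2.25, 1.99 and 2.47 FPKM in the treated libraries. Mrps2, a relative of a bacterial protein of the small subunit body, was at 18.8, 14.4 and 13.4 FPKM in NC and 12.3, 11.7 and 12.7 FPKM in the treated libraries. Both had groups that lay apart, at log2 fold changes of -0.27 (SE 0.12) and -0.31 (SE 0.16) and limma p of 0.0576 and 0.0867. Without NC 1 they were at -0.22 and -0.17. Mrps27, an RNA-binding protein of the pentatricopeptide family, overlapped between the groups by treated library 1 alone and had a log2 fold change of -0.25 (SE 0.15), or -0.14 without NC 1. Mrps33, Mrps18b and Mrps5 were the remaining Mrps genes whose groups lay apart, at -0.19, -0.22 and -0.20, and at -0.22, -0.11 and -0.08 without NC 1.

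The proteins at the message entry and decoding center (Mrps5, Mrps12 and Mrps24) had log2 fold changes of -0.20, -0.07 and -0.09 (-0.08, 0.01 and 0.06 without NC 1), of which only that of Mrps5 was still negative after rescaling to equal sums. On the platform, where the message leaves, Mrps7, Mrps11 and Mrps21 were at -0.14, -0.17 and -0.21 and Mrps18c at 0.20 (SE 0.20), each with overlapping groups, and the median of the 4 went from -0.15 to -0.05 without NC 1. Mrps18c was the member with the fewest reads and the highest log2 fold change of the small subunit, at 5.58, 4.23 and 4.81 FPKM in NC and 7.47, 4.33 and 5.76 FPKM in the treated libraries. Treated library 2 lay inside the NC range and the other two above it. The 3 S18 relatives, of which Mrps18a sits in the large subunit, thus had values of 0.20 for Mrps18c, -0.04 for Mrps18a and -0.22 for Mrps18b. Mrps10 had the second highest value of the small subunit, 0.09, which turned to -0.04 under median-of-ratios scaling, and Mrps15 and Mrps23 were at -0.14 and -0.03. Mrps30 was at 0.01 (SE 0.13).

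Members with relatives in bacteria and members specific to mitochondria lay mostly below the median of all genes, 43 of 45 with a median log2 fold change of -0.08 and 28 of 29 with -0.15. The groups lay apart toward lower values in 5 of the 45 (11.1%) and in 9 of the 29 (31.0%), against 3.92% of all genes. Without NC 1 the medians were -0.02 and -0.11. The 12 members known from human combined oxidative phosphorylation deficiency, a group of inherited disorders of mitochondrial translation, were all lower as deposited, between -0.40 (Mrpl12) and -0.03 (Mrps23), and 7 of 12 after rescaling to equal sums. Their median of -0.13 became -0.07 without NC 1. Members whose windows held the ETS letters had a median log2 fold change of -0.03 and those without -0.13. The same pair of medians was -0.08 and -0.09 for NRF1, and -0.09 and -0.08 for YY1.

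Exons of 32 members share bases with another gene in the mouse annotation, and the strand setting of the authors' counting was not stated, so these values are uncertain. The largest shares were those of Mrps25 with Nr2c2 (69.8% of its exon bases) and of Mrps34 with Mapk8ip3 (63.4%), and Mrpl46 and Mrps11 share 173 bases on opposite strands. The 45 members that overlap no other gene had a median log2 fold change of -0.10, or -0.03 without NC 1, with 38 lower and 9 whose groups lay apart toward lower values (20.0%, against 3.92% of all genes).

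The median coefficient of variation of the members was 13.5% in NC and 7.6% in the treated group, against 19.3% and 14.9% over all genes tested, a difference that was not tested. Mrpl44, a ribonuclease-like protein, was the steadiest in NC at 3.3%, and Mrpl12 varied most at 43.7%.

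Other nuclear genes of mitochondrial translation were read out of the same fit. The list of translation factors was a broad one and included genes that are not such factors in the strict sense, such as Lrpprc. Of its 13 genes tested, 8 had groups that lay apart toward lower values (61.5%, against 3.92% of all genes) and 4 were lower at an unadjusted p under 0.05 (30.8%, against 2.86%). Their median log2 fold change was -0.12, which is 0.249 below all genes (a difference of -0.249). Gfm1, an elongation factor that moves the ribosome along the message, was at 21.5, 18.7 and 18.1 FPKM in NC and 15.6, 13.6 and 13.9 FPKM in the treated libraries, with a log2 fold change of -0.41 (SE 0.13), a limma p of 0.0178 and an adjusted p of 0.518. Tufm, which delivers aminoacyl-tRNA, was at 66.6, 53.3 and 58.3 FPKM in NC and 44.6, 43.0 and 49.5 FPKM in the treated libraries, and Lrpprc, which stabilizes mitochondrial messages, had a log2 fold change of -0.29 (SE 0.11). Without NC 1 the log2 fold changes were -0.34 for Gfm1, -0.28 for Tufm and -0.26 for Lrpprc. The 28 assembly factors had a median of 0.01, the 17 mitochondrial tRNA synthetases one of -0.01, with Fars2 lowest at -0.42 (SE 0.13), and the 12 genes of mitochondrial DNA transcription and replication one of -0.02. The 5 subunit proteins with other symbols had a median of -0.09, and Ptcd3 among them was at 7.43, 7.58 and 7.57 FPKM in NC and 6.03, 6.28 and 6.88 FPKM in the treated libraries, with groups that lay apart.

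**Figure D4:**
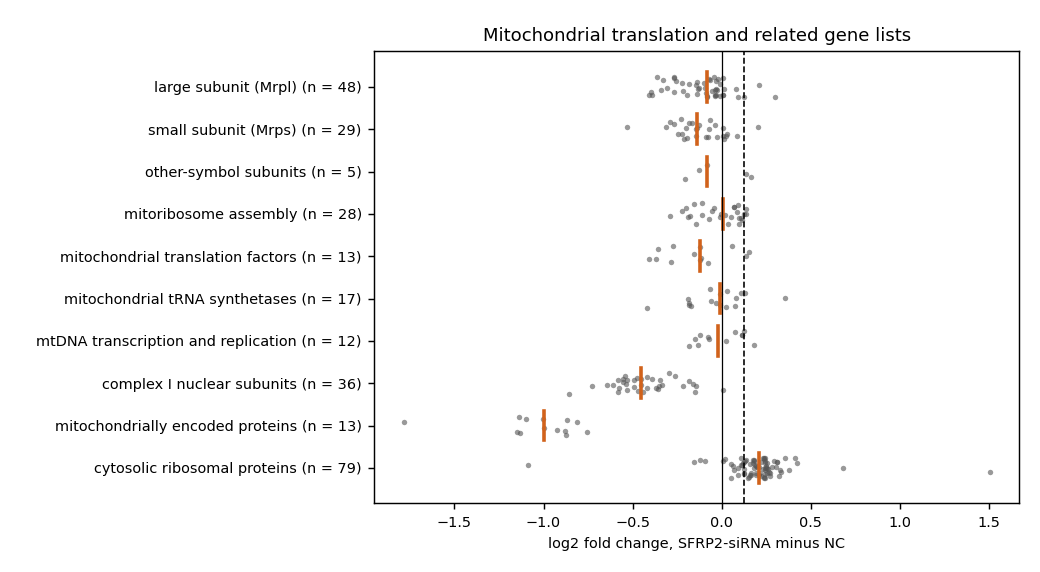
Log2 fold change (libraries labelled SFRP2-siRNA minus NC) of each gene in the members' 2 subunits and in related lists; points are genes, orange bars the median of each list, and the dashed line the median of all genes tested (0.125). The subunit medians of -0.083 and -0.136 lie between those of the complex I subunits (-0.455) and of the cytosolic ribosomal proteins (0.212).

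The messages this ribosome translates had lower medians than its own proteins did. All 13 proteins encoded in mitochondrial DNA had a lower treated mean, with a median log2 fold change of -1.0 and 9 whose groups lay apart (69.2%, against 3.92% of all genes). They took 34.5%, 21.4% and 16.8% of summed FPKM in NC and 15.9%, 11.5% and 13.4% in the treated libraries. Without NC 1 that median was -0.59. The RNAs of the ribosome itself, mt-Rnr1 and mt-Rnr2, were at -0.66 and -0.67, with overlapping groups, and at -0.27 and -0.42 without NC 1. The nuclear subunits of respiratory complex I, which is assembled from both genomes, had a median of -0.46 and 35 of 36 lower, and 16 whose groups lay apart (44.4%, against 3.92% of all genes). That median was -0.21 without NC 1. Cytosolic ribosomal proteins had a median of 0.21, which is 0.086 above all genes, and 18 of the 79 lay below the median of all genes. As deposited 75 of 79 were higher, against 11491 of all 16005 genes, and 54 of 79 under median-of-ratios scaling. Their groups lay apart toward higher values in 2 (2.53%, against 13.9% of all genes). None of the genes in these lists reached an adjusted p under 0.05, and the differences between lists were not tested.

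**Figure D5:**
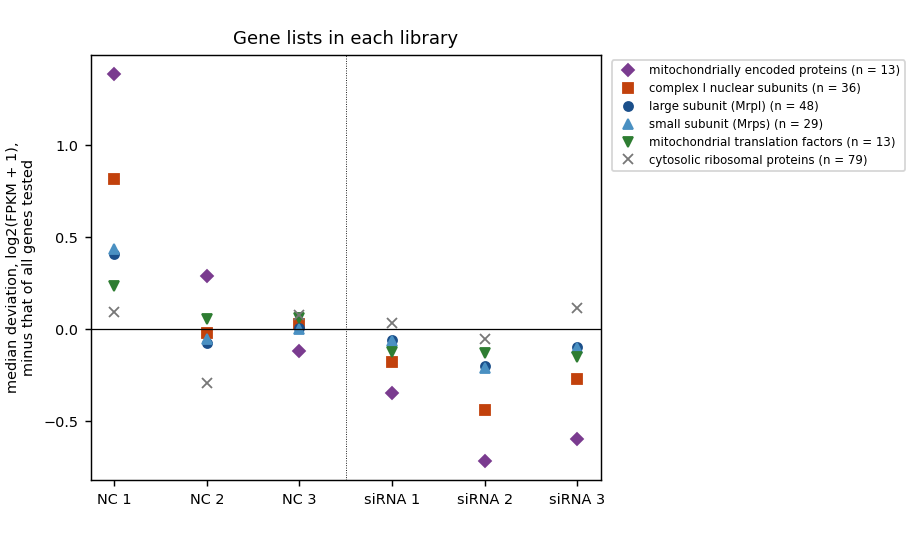
Median deviation of each gene list from its own mean over the 6 libraries, in log2(FPKM + 1) and minus that of all genes tested, for each library. In NC 1 the Mrpl and Mrps genes stand at 0.406 and 0.434, below complex I at 0.813 and the mitochondrially encoded proteins at 1.386, and in the other 5 libraries both subunits lie between -0.208 and 0.008.

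Brown adipocytes and skeletal muscle are both rich in mitochondria, and the treated means of their markers lay on opposite sides of the NC means, with overlapping groups for every muscle marker tested. Brown adipocyte markers, all 6 above 0 in every library, summed to 2164, 1206 and 748 FPKM in NC 1, 2 and 3 and to 479, 226 and 207 FPKM in the treated libraries, and 4 of the 6 had groups that lay apart (66.7%, against 3.92% of all genes). Ucp1, which uncouples respiration in brown fat, was at 1061, 615 and 315 FPKM in NC and 157, 39.9 and 19.1 FPKM in the treated libraries. NC 1 was the highest library for the brown adipocyte sum as for the members, and SFRP2-siRNA 2 and 3 were the lowest for that sum. The orders differed in NC 2, which was above every treated library in the brown adipocyte sum. In the members' summed FPKM, NC 2 at 1096 was below SFRP2-siRNA 1 at 1188 and SFRP2-siRNA 3 at 1168. Fibroblast markers, 10 of 10 above 0, summed to 957 to 2093 FPKM in NC and to 2316 to 2399 FPKM in the treated libraries, and macrophage markers, 10 of 10 above 0, to 965 to 1666 FPKM and 1881 to 2402 FPKM. All 10 skeletal muscle markers tested had a higher treated mean, with a median log2 fold change of 0.66 and NC 1 the lowest library in 9 of the 10, and the list summed to 3637 to 7297 FPKM in NC and 4903 to 13873 FPKM in the treated libraries. The sums ran for white adipocyte markers from 1865 to 2304 FPKM in NC and 975 to 2577 FPKM in the treated libraries, and for neutrophil markers from 1148 to 1775 and 997 to 5563 FPKM. In bulk tissue fewer cells of a type and less RNA per cell cannot be told apart, and the part of cell makeup in the members' values was not tested.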

How the data were processed

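Paired-end mRNA libraries of 6 wounds (3 NC, 3 labelled SFRP2-siRNA, grouped by their titles) were analyzed. The authors deposited one table of FPKM values for 33184 Ensembl gene IDs. HISAT2, featureCounts and Subread are named in the submitters' processing notes without versions, and the genome build, annotation and strand setting are not given in the sources used here. Symbols matched 32582 IDs, and 602 had none. With GENCODE vM21 exon lengths, 98.3% of genes with a length gave whole reads in every library (tolerance 0.05 reads), all 77 members among them, which gave the depths.

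The authors' thresholds (absolute log2 fold change above 1, adjusted p under 0.05) were kept. FPKM is not a count, so limma 3.58.1 (lmFit, eBayes with an intensity trend; R 4.3.3) was used on log2(FPKM + 1) in place of the DESeq2 that the authors name, over the 16005 genes whose mean reached 0.5 FPKM, two-sided, with Benjamini-Hochberg adjustment. Fold changes on this scale understate the change of low genes. Exact permutation tests were two-sided on mean FPKM. The limma code was tested on simulated data.

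Named members were, for each subunit, the 5 with the smallest p, the 2 highest and 2 lowest log2 fold changes, the 3 highest and 2 lowest levels, and up to 3 by p in each list. Members and lists were chosen with earlier results of these data known. No test over a list was made. Alternatives were other scalings, filters, pseudocounts, sample weights, voom on recovered reads, a replicate block and leaving out each library. The labels do not say whether replicate numbers pair the libraries, and pairing was not shown by the correlations of deviations (-0.05, -0.15 and 0.38). Promoter windows came from RefSeq (GRCm38.p6), and no protein sequences were used here.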

Additional observations from a re-analysis of the deposited data

How the results depend on the processing

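With 3 libraries a group, no difference passed the adjustment, and what size of difference could have passed was not tested for changes as small as these. The lowest log2 fold change of all genes tested, -3.55, was not called either. In all 17 alternatives no member and no gene was called, and the members' median log2 fold change stayed below that of all genes, from -0.309 to -0.104 when single libraries were left out. The same ranges were -0.300 to -0.104 for Mrpl and -0.352 to -0.113 for Mrps genes. The number of members lower at an unadjusted p under 0.05 (3 as reported) was 10 with estimated sample weights, 10 under median-of-ratios scaling, 9 under quantile normalization, 6 after rescaling without the 23 most abundant genes and 0 after rescaling to equal sums, and 0 to 3 without single libraries. It was 0 without NC 1, SFRP2-siRNA 2 or SFRP2-siRNA 3 and 1 without NC 3 or SFRP2-siRNA 1. The large minus small median (0.053) was 0.013 with sample weights, 0.031 under quantile normalization and 0.009 to 0.081 without single libraries. The number of members lower with groups apart (15), examined in alternatives chosen after seeing the data, was 30 under median-of-ratios scaling (7.87% of all genes lay apart this way), 24 under quantile normalization (6.42%), 28 without abundant genes (5.77%), 10 after equal sums (2.8%) and 15 to 35 without single libraries (5.52% to 7.97%), 35 being without NC 2 (6.83%). The share of all genes was 3.92% as reported. With a replicate block, 3 members were lower at an unadjusted p under 0.05, the median difference was -0.213 and 0 were called. Single-gene values were followed for 23 genes, namely Sfrp2 and members picked by p, change or level. Of their 391 values, 376 kept their direction and 15 in 5 genes reversed. Genes picked for a small p or an extreme change are apt to keep their direction, so this count does not describe all members. Of all 77 members, 61 were lower as deposited, 39 after equal sums, 74 under median-of-ratios scaling and 49 without NC 1. Mrpl41 turned to 0.026 (equal sums) and 0.063 (without NC 1), Mrps15 to 0.012 (without NC 1), and Mrps23 to 0.067 (equal sums), 0.101 (without NC 1) and 0.047 (without SFRP2-siRNA 2). Without single libraries they ranged from -0.19, -0.255 and -0.12 up to these values. Mrps10 turned to -0.043 (median of ratios) and -0.037 (quantile). Mrps30 turned to -0.088 (weights), -0.113 (median of ratios), -0.101 (quantile), -0.066 (without abundant genes), -0.013 (without NC 1), -0.043 (without NC 2) and -0.058 (without SFRP2-siRNA 1), and was 0.076 without NC 3. The cause of these changes was not tested.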
